A study of Homo sapiens with 30 samples.

Results

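Zinc finger genes named ZNF and a number that lie outside chromosome 19 were followed through 3 RNA-seq experiments in 5637 cells, an established human bladder carcinoma cell line. The symbols had to be listed in the count tables of all 3 experiments. Of 513 such symbols, 247 lie on chromosome 19 and 266 elsewhere. Of the 266, 2 (ZNF645 and ZNF806) had no match in the knockout table, 1 (ZNF705E) is now named as a pseudogene, and 28 reached 10 counts in fewer than 3 libraries of every table. This left 235 genes on 20 chromosomes, of which 29 lie on chromosome 16, 28 on chromosome 7 and 18 on chromosome 1. Of the 235, 229 reached the minimum in each of the 3 tables, and ZNF705A passed most narrowly, with 3 such libraries in the overexpression table and 1 in the knockdown table.

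Zinc finger genes of this name mostly encode DNA-binding proteins in which an array of C2H2 fingers, each folded around a zinc ion, reads the bases of the DNA. Many carry a KRAB domain at their amino end, which recruits TRIM28 (KAP1), the methyltransferase SETDB1 and HP1 proteins to silence chromatin, above all at transposable elements. Others carry a SCAN domain, which pairs zinc finger proteins with each other, or neither domain, and act as activators, as partners of chromatin complexes, or on RNA and ribosomes. The largest clusters of the family lie on chromosome 19, and the genes outside it are spread over single sites and smaller clusters.

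Each group had 3 libraries, prepared with a stranded mRNA kit from TRIzol RNA. The knockout experiment held 2 groups with the genotype RBPMS-KO (KO1 and KO2), each with a WT group of its own number (WT1 and WT2). RBPMS is an RNA-binding protein, and the study describes its knockout cells as expanded from single clones, so that a difference between a knockout and its WT group can also belong to the clone. The overexpression experiment held Vector, ANKRD10-1 OE and ANKRD10-2 OE, which differ in the splice isoform of ANKRD10 that was expressed, and the knockdown experiment held siNC, siANKRD10-1 and siANKRD10-2, transfected siRNAs. The study places some of the ANKRD10 groups in RBPMS-knockout cells, while the labels of these groups name only the cell line. The labels thus do not settle whether treated and control groups shared the RBPMS genotype. On the log2 scale RBPMS was at −0.19 in ANKRD10-1 OE and 0.08 in ANKRD10-2 OE against Vector (edgeR adjusted p = 0.472 and 0.717). It was at −0.11 in siANKRD10-1 and 0.03 in siANKRD10-2 against siNC (edgeR adjusted p = 0.681 and 0.894). In the knockout table it was at −1.44 in KO1 and −1.09 in KO2. The genotype itself was not tested. ANKRD10-1 OE and ANKRD10-2 OE share the Vector libraries, and siANKRD10-1 and siANKRD10-2 share the siNC libraries. Labels do not say whether the 3 libraries of a group came from separate cultures, so p-values measure the spread between these libraries, which may be technical.

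Levels are given as CPM (counts scaled to a common library size) after TMM scaling within a table, and are not comparable between tables. Total counts per library ranged from 44593108 to 69723937 in the knockout table, from 31736779 to 47493499 in the overexpression table and from 28511029 to 32784584 in the knockdown table. RBPMS counted 14.9 ± 0.57 CPM in KO1 against 40.5 ± 1.65 in WT1 and 20.2 ± 1.36 in KO2 against 43.3 ± 1.05 in WT2 (SD, n = 3). ANKRD10 rose by 0.67 (ANKRD10-1 OE) and 0.41 (ANKRD10-2 OE) on the log2 scale and fell by 0.24 (siANKRD10-1) and 0.25 (siANKRD10-2), with edgeR adjusted p from 4.44e-09 to 0.0159. The gene counts do not separate the isoforms. The 10 epithelial markers summed to 3730 to 7210 CPM in every library, and the 3 endothelial markers to between 1.12 and 3.04 CPM. The 4 leukocyte markers summed to at most 1.57 CPM in the knockout table, to 22.2 to 23.9 in Vector, 16.5 to 18.5 in the overexpression groups, 12.3 to 14.8 in siNC and siANKRD10-1 and 9.10 to 9.86 in siANKRD10-2. Nearly all of this outside the knockout table was CD68, while CD3E of T cells was at 0 in every group but ANKRD10-2 OE (at most 0.129 CPM) and PTPRC reached at most 0.415 CPM. The 5 fibroblast markers, led by COL1A1, summed to 52.6 to 56.3 CPM in WT1, 32.4 to 38.4 in KO1, 55.5 to 56.3 in WT2, 49.3 to 52.5 in KO2 and 27.8 to 57.0 in the other tables. Mitochondrial genes took 7.38% to 7.84% of the counts in WT2 and 6.05% to 6.71% in KO2, and 8.47% to 8.66% in Vector and 7.59% to 7.75% in ANKRD10-2 OE. The part of these lists and of the mitochondrial share in the changes below was not tested.

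As a group the 235 genes took up less than 1% of all counts. Their share was 0.850% ± 0.0046 in WT1, 0.772% ± 0.0315 in KO1, 0.848% ± 0.0102 in WT2 and 0.741% ± 0.0167 in KO2 (SD, n = 3). The libraries of each knockout all lay below those of its WT group, and fewer cells with a transcript cannot be told apart from less transcript per cell in such bulk samples. The share was 0.631% ± 0.0079 in Vector, 0.599% ± 0.0069 in ANKRD10-1 OE and 0.578% ± 0.0130 in ANKRD10-2 OE. It was 0.540% ± 0.0168 in siNC, 0.533% ± 0.0143 in siANKRD10-1 and 0.583% ± 0.0057 in siANKRD10-2, where it was above siNC in all 3 libraries. The median gene of the group had 18.3 CPM in the knockout table, 11.1 in the overexpression table and 11.4 in the knockdown table, beside 12.2, 7.82 and 9.05 over all expressed genes.

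Per kilobase of annotated exon, ZNF664 was the highest in the knockout table at 69.1 CPM per kb, followed by ZNF217 at 31.5, ZNF770 at 30.6, ZNF22 at 29.6 and ZNF207 at 25.2. ZNF217 is an oncogene that works with corepressor complexes, and ZNF207 (BuGZ) helps chromosomes to attach to the spindle. The highest in the overexpression table were ZNF330 (45.1 CPM per kb), ZNF638 (37.7), ZNF622 (35.1), ZNF664 (31) and ZNF337 (28.1). In the knockdown table they were ZNF664 (49.3), ZNF622 (37.3), ZNF326 (34.0), ZNF638 (25.5) and ZNF330 (24.7). Of these top genes, ZNF622 acts in the maturation of the large ribosomal subunit, ZNF638 binds RNA and ZNF326 couples splicing to transcript elongation.

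In KO1, more of these genes fell than rose. Of 231 tested, 26 were higher and 50 lower than in WT1 (edgeR quasi-likelihood test, adjusted p under 0.05 over all genes tested), where 17.9% of all genes tested were higher and 18.2% lower. The median log2 fold change was −0.06, beside −0.00 over all genes. Of the called genes, 5 rose and 4 fell at least 2-fold. The share over all genes at 2-fold is not given here, so these counts have no background beside them.

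ZNF354C, a KRAB zinc finger gene of the ZNF354 cluster on chromosome 5, rose the furthest. Its levels were 1.17, 1.21 and 1.57 CPM in WT1 and 11.4, 9.95 and 9.80 CPM in KO1, a log2 fold change of 2.98 ± 0.17 (SE, edgeR adjusted p = 4.25e-07). It stood at 1.59, 1.67 and 1.67 CPM in WT2 and at 3.65, 3.79 and 3.68 CPM in KO2 (1.18 ± 0.18, edgeR adjusted p = 2.91e-04). The groups did not overlap in either knockout, and KO1 lay above KO2. The exons of ZNF354C overlap those of an antisense gene, and the strand setting of the authors' counting is not given in the sources used here, so reads of the antisense gene can be among these counts. Its RefSeq promoter (GRCh38.p14, chr5:179060123-179060422, plus strand, 250 bases before to 50 after the start) is shown because it belongs to the called gene with the largest rise in both knockouts, and it holds none of the motifs searched below.
ZNF354C: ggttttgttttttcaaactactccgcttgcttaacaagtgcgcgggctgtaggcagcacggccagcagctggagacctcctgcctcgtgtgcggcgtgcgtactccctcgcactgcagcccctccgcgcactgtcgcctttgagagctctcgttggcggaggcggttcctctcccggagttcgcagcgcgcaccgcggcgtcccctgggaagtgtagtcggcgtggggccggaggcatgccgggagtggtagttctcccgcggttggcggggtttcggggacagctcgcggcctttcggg

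Of its cluster neighbours, ZNF354A rose in KO1 (0.33 ± 0.10, edgeR adjusted p = 0.0232) and fell in KO2 (−0.39 ± 0.12, edgeR adjusted p = 0.0221), and ZNF354B was at −0.17 in KO1, where it did not pass, and fell by 0.40 in KO2. The call of ZNF354A was lost in KO1 without WT1 replicate 1 or 2 or KO1 replicate 2 or 3 (edgeR adjusted p from 0.0535 to 0.0862) and in KO2 without WT2 replicate 1 or KO2 replicate 1 (0.0870 and 0.0987).

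ZNF732 and ZNF736, KRAB genes at low levels in the other groups of the table, were the next in KO1. ZNF732 on chromosome 4 had 0.882, 0.185 and 0.642 CPM in WT1 and 4.21, 4.04 and 5.05 CPM in KO1 (2.96 ± 0.41, edgeR adjusted p = 2.28e-04). In WT2 it had 0.690, 0.287 and 1.10 CPM and in KO2 0.653, 0.276 and 0.959 CPM, so that KO2 and WT2 overlapped (−0.13, edgeR adjusted p = 0.883). ZNF736 on chromosome 7 had 0.422, 0.463 and 0.448 CPM in WT1 and 2.22, 2.79 and 1.72 CPM in KO1 (2.33 ± 0.30, edgeR adjusted p = 1.40e-04). The KO2 libraries, at 0.583, 0.729 and 0.487 CPM, overlapped with those of WT2 at 0.495, 0.377 and 0.627 CPM. The difference itself, KO1 effect minus KO2 effect, was 3.08 ± 0.72 for ZNF732 (edgeR adjusted p = 0.00531) and 2.06 ± 0.45 for ZNF736 (edgeR adjusted p = 0.00282).

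ZNF750, a factor of epidermal differentiation without a KRAB domain, moved in opposite directions. Its levels were 5.56, 6.58 and 5.85 CPM in WT1 and 13.9, 12.5 and 15.6 CPM in KO1 (1.23 ± 0.12, edgeR adjusted p = 2.41e-05). They were 8.43, 8.61 and 6.38 CPM in WT2 and 2.51, 2.03 and 2.19 CPM in KO2 (−1.79 ± 0.17, edgeR adjusted p = 5.46e-06). The 3 libraries of each knockout lay outside the range of their WT group, KO1 above it and KO2 below it, and the difference of the effects was 3.01 ± 0.21 (edgeR adjusted p = 3.88e-08). The last of the 5 named rises in KO1, ZNF485, had 1.80, 1.41 and 2.24 CPM in WT1 and 3.47, 4.33 and 2.66 CPM in KO1 (0.94 ± 0.25, edgeR adjusted p = 0.0135). Its call was lost without WT1 replicate 2 (0.79, edgeR adjusted p = 0.0546).

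The deepest fall in KO1 among the named genes was that of ZNF862, which carries a KRAB box and no C2H2 array that the pattern found. It had 4.53, 3.58 and 4.25 CPM in WT1 and 1.28, 1.16 and 1.86 CPM in KO1 (−1.52 ± 0.24, edgeR adjusted p = 4.90e-04), and 6.78, 4.66 and 5.07 CPM in WT2 against 3.58, 3.49 and 3.33 CPM in KO2 (−0.66 ± 0.17, edgeR adjusted p = 0.00954). The groups did not overlap in either knockout, and the KO2 call was lost without WT2 replicate 1 (−0.48, edgeR adjusted p = 0.0612) and with all 6 WT libraries as controls (−0.46, edgeR adjusted p = 0.0530). ZNF711, an X-linked gene whose loss causes intellectual disability, had 39.2, 33.4 and 40.2 CPM in WT1 and 14.3, 18.6 and 16.6 CPM in KO1 (−1.19 ± 0.11, edgeR adjusted p = 1.23e-05). In KO2 the groups overlapped and the change was smaller, with 31.7, 29.6 and 34.2 CPM against 39.0, 36.9 and 34.1 CPM in WT2 (−0.19 ± 0.07, edgeR adjusted p = 0.0355). That small KO2 change was lost without WT2 replicate 1 or 2 or KO2 replicate 1 or 2 (edgeR adjusted p from 0.0881 to 0.146). ZNF34 (−1.01 ± 0.21), ZNF775 (−0.86 ± 0.16) and ZNF608 (−0.80 ± 0.06) were the other named falls.

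**Figure D1:**
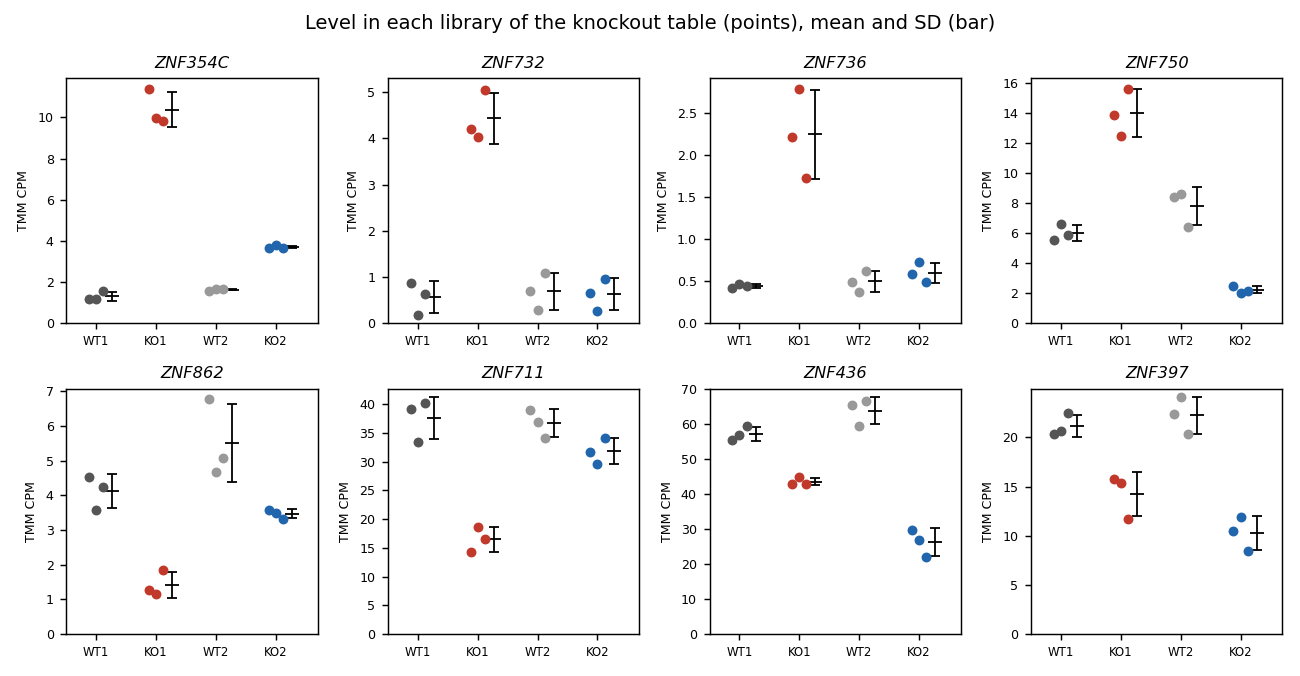
Level of selected genes in each library of the knockout table, in TMM CPM on axes that start at 0, by group (points: libraries, bar: mean and SD, n = 3). ZNF354C was higher in both knockouts, ZNF732 and ZNF736 in KO1, ZNF750 went up in KO1 and down in KO2, and ZNF436 and ZNF862 were lower in both.

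In KO2, falls outnumbered rises on most chromosomes. Of 231 tested genes, 16 were higher and 96 lower than in WT2, where 19.3% of all genes tested were higher and 19.2% lower. The median log2 fold change was −0.20, beside −0.02 over all genes, and 167 of the 231 values lay below 0. Of the called genes, 1 rose and 9 fell at least 2-fold, again without a share over all genes at 2-fold beside them. The zinc finger genes on chromosome 19 went the same way, with 2 higher and 126 lower of 216 tested and a median of −0.38. In KO1 the zinc finger genes on that chromosome had a median of −0.35 over 222 tested, with 43 higher and a larger number lower. The other genes on chromosome 19 had a median of −0.39 in KO1 and 0.08 in KO2.

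Among genes with at least 50 normalized counts on average and no overlap between the groups, the largest falls in KO2 after ZNF750 were those of ZNF436, ZNF483, ZNF596 and ZNF169. ZNF436, a KRAB gene on chromosome 1, had 65.5, 59.5 and 66.7 CPM in WT2 and 29.9, 26.9 and 22 CPM in KO2 (−1.27 ± 0.10, edgeR adjusted p = 6.88e-07), and 55.5, 56.9 and 59.6 CPM in WT1 against 43.0, 44.9 and 43.0 CPM in KO1 (−0.39 ± 0.06, edgeR adjusted p = 2.83e-04). No knockout library reached the lowest WT library. An antisense gene, ZNF436-AS1, overlaps its exons. ZNF483 had 18.1, 18.3 and 21.6 CPM in WT2 and 8.49, 8.01 and 8.10 CPM in KO2 (−1.23 ± 0.10, edgeR adjusted p = 1.04e-06). ZNF169 had 5.56, 5.81 and 6.13 CPM in WT2 and 2.21, 3.04 and 2.63 CPM in KO2 (−1.14 ± 0.17, edgeR adjusted p = 1.79e-04). Both lie on chromosome 9 and were lower in each KO2 library than in any WT2 library. ZNF596, at −1.18 ± 0.33 (edgeR adjusted p = 0.0135), had 4.28, 3.80 and 3.38 CPM in WT2 and 1.25, 0.946 and 2.81 CPM in KO2, and its call was lost without WT2 replicate 1 or KO2 replicate 1 (edgeR adjusted p from 0.0567 to 0.0626) and with all 6 WT libraries as controls (−0.76, edgeR adjusted p = 0.216).

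The rises in KO2 were small beside ZNF354C. ZNF598, a ubiquitin ligase that senses collided ribosomes, had 27.7, 29.5 and 30.2 CPM in WT2 and 43.3, 41.6 and 40.6 CPM in KO2 (0.53 ± 0.06, edgeR adjusted p = 1.69e-05), and 31.3, 29.5 and 28.1 CPM in WT1 against 40.2, 34.8 and 40.3 CPM in KO1 (0.38 ± 0.08, edgeR adjusted p = 0.00255). Every knockout library lay above every WT library. ZNF593, a maturation factor of the large ribosomal subunit, rose by 0.51 ± 0.14 (edgeR adjusted p = 0.0132), a call lost without WT2 replicate 1 or 3 or KO2 replicate 2 (edgeR adjusted p from 0.0520 to 0.0688). ZNF276 rose by 0.49 ± 0.11 and ZNF408 by 0.35 ± 0.09.

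Chromosome 9 as a whole was lower in KO2. The 706 other genes tested on it, those of other zinc finger families left out, had a median log2 fold change of −0.40, with 54.0% lower and 3.40% higher, and the median was between −0.27 and −0.79 in each of the 20-Mb windows from 0 to 140 Mb. In KO1 712 such genes of chromosome 9 had a median of 0.08. Of the 12 chromosome 9 zinc finger genes tested in KO2, 11 were lower (all but ZNF462), with a median of −0.68. Without them, 219 genes remained, of which 16 were higher and 85 lower, with a median of −0.18. With the median of each chromosome's genes subtracted, ZNF483 was at −0.83 and ZNF169 at −0.74, and both kept their call. Whether the chromosome-wide value has a part in the falls of its zinc finger genes was not tested.

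On 18 of 20 chromosomes the median of the zinc finger genes lay below that of the other genes in KO2, and on 18 of 20 in KO1. The same was seen against close neighbours. Of 215 genes in KO2 with at least 5 other genes tested within 1 Mb, 153 lay below the median of those neighbours, which had a median of 0.03 over the sites where the zinc finger genes had −0.21. In KO1 it was 117 of 210, with medians of 0.02 for the neighbours and −0.05 for the zinc finger genes. In WT2 against WT1, where the genotype label is the same, it was 94 of 215. Neighbouring sites overlap and their genes share libraries, so these counts are descriptions.

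The KO1 and KO2 comparisons share no library. Among 230 genes tested in both, 76 were called in KO1 and 112 in KO2, and 47 in both, which is 61.8% of the KO1 list and 42.0% of the KO2 list. Of the 47, 35 were lower in both, 8 were higher in both and 4 went in opposite directions. Over all genes 3816 were called in both, 59.6% of the KO1 list and 54.9% of the KO2 list. Of the 3816, 1646 were higher in both, 1444 lower in both and 726 opposite. Pearson's r of the log2 fold changes was 0.34 over the 230 genes and 0.30 over all 17445 genes, a description across genes that share libraries.

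The 8 genes higher in both were ZNF354C, ZNF598, ZNF276, ZNF408, ZNF35, ZNF622, ZNF26 and ZNF639. ZNF622 had 26.9, 27.5 and 26.8 CPM in WT1 and 33.4, 36.8 and 33.1 CPM in KO1 (0.35 ± 0.07, edgeR adjusted p = 0.00213), and 28.2, 27.3 and 27.3 CPM in WT2 against 33.0, 30.9 and 33.1 CPM in KO2 (0.24 ± 0.05, edgeR adjusted p = 0.00444). All knockout libraries lay above all WT libraries. ZNF35, at 0.37 and 0.29, lost its call in KO1 without any library but KO1 replicate 3 (edgeR adjusted p up to 0.162) and in KO2 without WT2 replicate 2 or 3 or KO2 replicate 1 or 2 (up to 0.182).

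The 5 shared falls with the largest smaller change were ZNF214, ZNF862, ZNF852, ZNF774 and ZNF397. ZNF214 had 10.4, 9.09 and 11.4 CPM in WT1 and 7.13, 7.07 and 4.98 CPM in KO1 (−0.68 ± 0.16, edgeR adjusted p = 0.0056), and 10.7, 8.37 and 10.7 CPM in WT2 against 4.98, 4.95 and 5.67 CPM in KO2 (−0.92 ± 0.13, edgeR adjusted p = 1.54e-04). ZNF397, a SCAN gene on chromosome 18, had 20.4, 20.7 and 22.5 CPM in WT1 and 15.8, 15.3 and 11.7 CPM in KO1 (−0.56 ± 0.11, edgeR adjusted p = 0.00225), and 22.4, 24.1 and 20.3 CPM in WT2 against 10.5, 11.9 and 8.43 CPM in KO2 (−1.11 ± 0.12, edgeR adjusted p = 2.06e-05). For both genes no knockout library overlapped with its WT group. ZNF852 fell by 0.59 and 0.75 in KO1 and KO2, and ZNF774 by 0.57 and 0.67. Their KO1 calls were lost without WT1 replicate 2 or KO1 replicate 1, and that of ZNF852 also without WT1 replicate 1 or KO1 replicate 3 (edgeR adjusted p from 0.0531 to 0.0742 for ZNF852, and 0.0644 and 0.0745 for ZNF774). The rest of the 35 include ZNF503, a repressor of the NET family, ZNF512, ZNF704, ZNF608, ZNF652, ZNF827 and ZNF770.

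All 4 opposite genes, ZNF750, ZNF680, ZNF354A and ZNF318, were higher in KO1 and lower in KO2. ZNF680, of a chromosome 7 cluster, had 6.71, 6.06 and 5.54 CPM in WT1 and 10.6, 11.3 and 9.19 CPM in KO1 (0.77 ± 0.13, edgeR adjusted p = 9.26e-04), and 5.28, 4.89 and 5.21 CPM in WT2 against 3.28, 4.12 and 2.78 CPM in KO2 (−0.59 ± 0.18, edgeR adjusted p = 0.0200). The groups did not overlap in either, and the KO2 call was lost without WT2 replicate 1 or 3 or KO2 replicate 1 or 3 (edgeR adjusted p from 0.0587 to 0.0763).

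**Figure D2:**
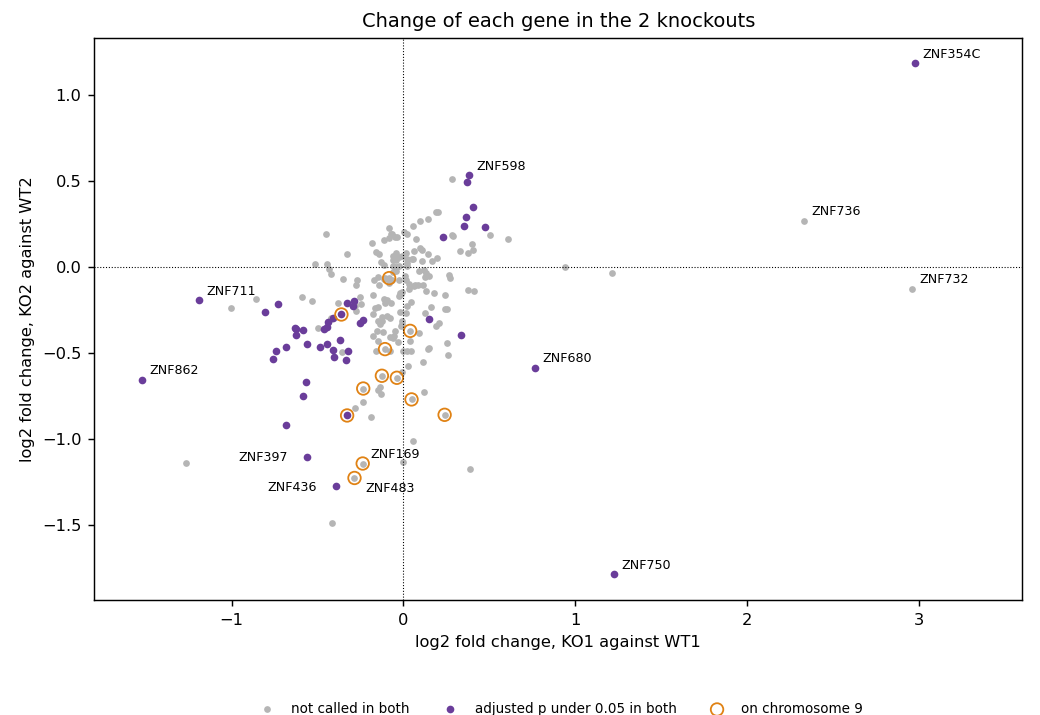
Log2 fold change of each gene in KO2 against WT2 (vertical) over that in KO1 against WT1 (horizontal), for the 230 genes tested in both, with genes called in both in purple and chromosome 9 genes ringed in orange. Most of the genes called in both lie in the lower left, and ZNF750, ZNF680 and ZNF354A in the lower right.

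The effects of the 2 knockouts were compared in 1 fit over the 12 libraries. Of 232 genes, KO1 effect minus KO2 effect was above 0 for 44 and below 0 for 11, where 11.2% of all genes tested were above and 12.1% below, and its median was 0.10. The 11 below include ZNF711 (−1.0 ± 0.13), ZNF862 (−0.87 ± 0.29) and ZNF608 (−0.55 ± 0.08). That of ZNF862 (edgeR adjusted p = 0.0389) was lost without any one of 9 of the 12 libraries, the exceptions being WT1 replicate 2, KO1 replicate 3 and WT2 replicate 1 (up to 0.0967).

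Between the WT groups, which carry the same genotype label, few genes differed. In WT2 against WT1, 5 of 230 genes were higher and 0 lower in edgeR, where 0.578% of all genes tested were higher and 0.654% lower, and 46 of the 230 had an unadjusted p under 0.05. DESeq2 called 8 higher and 6 lower. The shares over all genes at an unadjusted p and in DESeq2 are not given here, so these counts have no background beside them. ZNF503 had 34.2, 35.4 and 31.4 CPM in WT1 and 44.0, 46.3 and 44.2 CPM in WT2 (0.41 ± 0.06, edgeR adjusted p = 0.00703). Its KO2 libraries, at 36.5, 35.6 and 31.7 CPM, lay below WT2 but overlapped with WT1, and its KO2 call was lost with all 6 WT libraries as controls (−0.17, edgeR adjusted p = 0.256). ZNF703, a repressor of the same family as ZNF503, was higher in WT2 by 0.35 ZNF367 by 0.40, ZNF641 by 0.35 and ZNF740 by 0.24. Without any 1 of the 6 libraries the count of 5 fell to between 1 (WT1 replicate 2) and 3. The call of ZNF703 was lost without WT1 replicate 2 or 3 or WT2 replicate 2 (edgeR adjusted p up to 0.0573), that of ZNF367 without any library but WT2 replicate 3 (up to 0.148) and that of ZNF641 without any but WT1 replicate 3 (up to 0.0981). ZNF641 also lost its KO2 call with all 6 WT libraries as controls (edgeR adjusted p = 0.141).

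Of the 235 genes, 234 had a translated coding sequence. A KRAB A box was found in 107, a SCAN domain in 20 and both in 6 of these. Neither was found in 114, counting the gene without a coding sequence. In KO2 53 of 106 KRAB genes were lower and 5 higher, with a median of −0.29, and 43 of 125 others were lower and 11 higher, with a median of −0.14. In KO1, 23 of 106 KRAB genes and 27 of 125 others were lower, with medians of −0.05 and −0.06. The difference between these classes was not tested. Among the 127 genes tested whose exons overlap no other gene, 23 were lower and 17 higher in KO1, and 56 lower and 10 higher in KO2.

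The list of 12 members that act on RNA or ribosomes had 2 higher and 0 lower in KO1, namely ZNF598 and ZNF622, and 3 higher and 4 lower in KO2. Over all genes tested 17.9% were higher and 18.2% lower in KO1, and 19.3% and 19.2% in KO2, so that the share higher in this list (16.7% and 25%) was near that background. Among 28 tested members of a list of 30 chromatin partners and factors outside the KRAB class, 2 were higher and 9 lower in KO1 and 1 was higher and 12 lower in KO2, that is 32.1% and 42.9% lower beside the same background. ZNF217 fell in KO1 (−0.27, edgeR adjusted p = 0.00203) and was at −0.10 in KO2 (edgeR adjusted p = 0.0590). ZNF703 fell by 0.49 in KO2, ZNF148 by 0.24 and ZNF395 by 0.21, while ZNF195 rose by 0.32. ZNF143, an activator that binds promoters, passed in neither knockout, at −0.04 and 0.18 (edgeR adjusted p = 0.752 and 0.0645). ZNF10, from which the KRAB domain of many synthetic repressors was taken, fell by 0.53 in KO1, a call lost without WT1 replicate 2 (−0.35, edgeR adjusted p = 0.0873).

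The corepressor genes that KRAB proteins work with moved in both directions. Of 25, 4 (16%) were higher and 8 (32%) lower in KO1, and 7 (28%) higher and 8 (32%) lower in KO2, beside the background given for the other lists. Some of them, such as TRIM28 and DNMT1, lie on chromosome 19. The other genes tested there had a median of −0.39 in KO1, with 46.6% lower and 5.87% higher. The part of that chromosome-wide value in the KO1 counts of this list was not tested. TRIM28 was at 268 CPM in KO1 against 362 in WT1 (−0.43 ± 0.06, edgeR adjusted p = 1.53e-04) and at 366 in KO2 against 364 in WT2 (0.02 ± 0.03, edgeR adjusted p = 0.700). SETDB1 was at 48.8 CPM in KO2 against 60.0 in WT2 (−0.29 ± 0.05, edgeR adjusted p = 4.54e-04) and did not pass in KO1 (0.06 ± 0.06). ATF7IP, the partner that stabilizes SETDB1, fell by 0.30 in KO1 and 0.27 in KO2.

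Neighbouring genes of a cluster were not always called together. At the end of the long arm of chromosome 12 (GRCh38, chr12:132918308-133214831), 5 of 7 genes were lower in KO2 (ZNF605, ZNF84, ZNF140, ZNF891 and ZNF268, from −0.74 to −0.32) and ZNF26 was higher (0.23), while 21 other genes within 2 Mb had a median of 0.20, with 10 higher and 1 lower. In chr18:35241030-35377337, ZNF397, ZNF24 and ZNF396 were all lower in KO2, by 1.11, 0.19 and 1.49, and 18 other genes near them had a median of 0.08. In chr10:37802823-38150293, ZNF248, ZNF33A and ZNF37A were lower in both knockouts, and ZNF25 passed in neither. The 5 other genes within 2 Mb had medians of −0.32 in KO1 (0 higher, 1 lower) and −0.19 in KO2 (1 higher, 0 lower). ZNF33A has a near-identical relative outside this cluster, ZNF33B, and the counting may have split reads between them. In the largest cluster, 14 genes of chr16:30378106-31917357, ZNF785 alone of 13 tested was called in KO2 (−0.49).

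**Figure D3:**
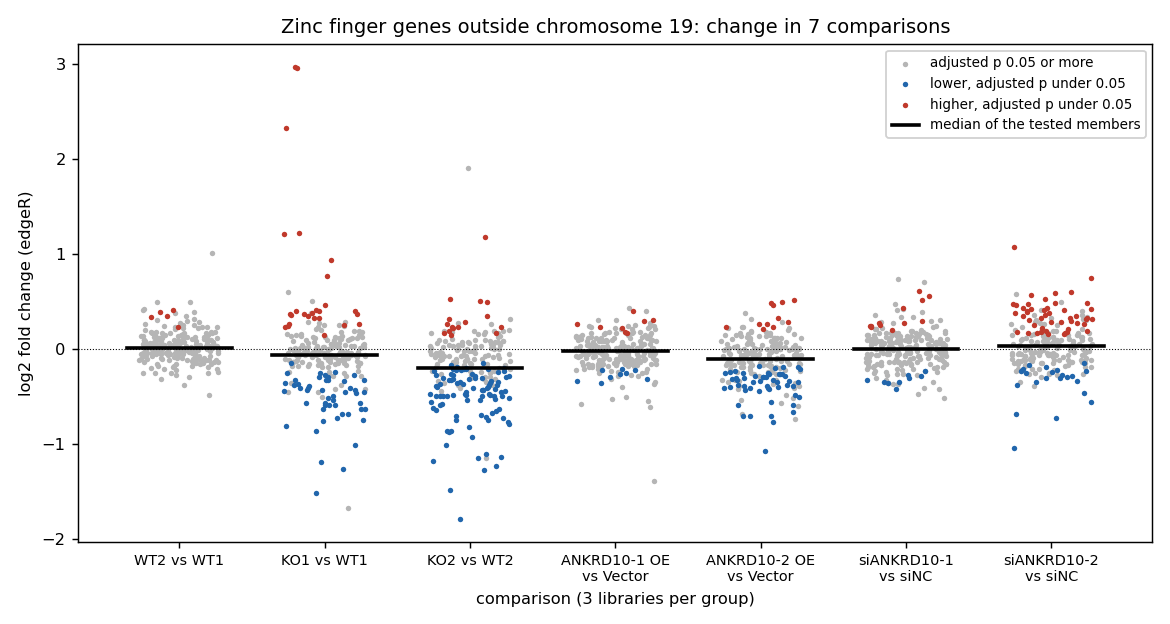
Log2 fold change (vertical) of every tested gene in WT2 against WT1 and in the 6 comparisons with a control group, 1 point a gene, with the median as a bar and genes at an adjusted p under 0.05 in red (higher) or blue (lower). The KO2 distribution (median −0.20) and that of ANKRD10-2 OE (median −0.10) lie furthest below 0, and that of siANKRD10-2 (median 0.04) above.

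In ANKRD10-1 OE few of the genes were called. Of 233 tested, 8 were higher and 9 lower than in Vector, where 3.50% of all genes tested were higher and 2.81% lower, and the median was −0.02. ZNF598 had 40.9, 41.6 and 43.8 CPM in Vector and 52.3, 52.0 and 52.8 CPM in ANKRD10-1 OE (0.31 ± 0.05, edgeR adjusted p = 0.00103). ZNF655 had 70.9, 66.1 and 64.9 CPM in Vector and 54.2, 57.8 and 48.6 CPM in ANKRD10-1 OE (−0.33 ± 0.06, edgeR adjusted p = 0.00246). Neither gene overlapped between the groups. In ANKRD10-2 OE ZNF598 had 48.5, 49.1 and 50.2 CPM (0.23, edgeR adjusted p = 0.00903, lost without Vector replicate 1 at 0.0523) and ZNF655 had 52.3, 55.4 and 59.6 CPM (−0.27, edgeR adjusted p = 0.00666). ZNF25 rose by 0.40, and ZNF117 and ZNF514 fell by 0.35 and 0.31. These 3 calls were lost without 1 library (ZNF25: ANKRD10-1 OE replicate 2, edgeR adjusted p = 0.0868; ZNF514: Vector replicate 2 or ANKRD10-1 OE replicate 1, up to 0.0820; ZNF117: Vector or ANKRD10-1 OE replicate 1 or 2, up to 0.111). The count of 17 called genes fell to 8, 7, 8, 9 and 9 without Vector replicate 1 or 2 or ANKRD10-1 OE replicate 1, 2 or 3.

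In ANKRD10-2 OE more genes fell than rose. Of 232 tested, 11 were higher and 53 lower than in Vector, where 10.7% of all genes tested were higher and 9.25% lower, and the median was −0.10 beside −0.01 over all genes. The falls were small, and 1 of the 53 reached 2-fold, a count without a share over all genes beside it. ZNF70 had 5.35, 4.99 and 6.09 CPM in Vector and 3.16, 3.23 and 3.66 CPM in ANKRD10-2 OE (−0.70 ± 0.13, edgeR adjusted p = 0.00202). ZNF572 and ZNF662 fell by 0.70 each. The libraries of the 2 groups did not overlap for any of the 3. The count of 64 fell to 39 without Vector replicate 1 and to 40 without Vector replicate 2.

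Among the rises in ANKRD10-2 OE were ZNF280C, ZNF367 and ZNF143. ZNF143 had 55.3, 50.5 and 51.9 CPM in Vector and 72.5, 71.3 and 76.2 CPM in ANKRD10-2 OE (0.49 ± 0.05, edgeR adjusted p = 3.01e-05), and 60.3, 60.9 and 57.1 CPM in ANKRD10-1 OE (0.18 ± 0.05, edgeR adjusted p = 0.0528). ZNF367 had 44.9, 38.8 and 43.7 CPM in Vector and 59.1, 61.4 and 58.2 CPM in ANKRD10-2 OE (0.49 ± 0.06, edgeR adjusted p = 8.61e-05). ZNF280C had 6.0, 6.43 and 5.86 CPM in Vector and 7.88, 9.21 and 9.07 CPM in ANKRD10-2 OE (0.52 ± 0.10, edgeR adjusted p = 0.00289). In all 3 the ANKRD10-2 OE libraries lay above every Vector and every ANKRD10-1 OE library.

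Compared with each other, ANKRD10-2 OE had 5 genes higher and 18 lower than ANKRD10-1 OE of 231 tested, where 4.15% of all genes tested were higher and 3.10% lower. ZNF280C (0.49 ± 0.11), ZNF367 (0.43 ± 0.06) and ZNF143 (0.31 ± 0.05, edgeR adjusted p = 0.00111) were higher, and ZNF771 (−0.85 ± 0.25), ZNF594 (−0.71 ± 0.15) and ZNF70 (−0.68 ± 0.13) were lower. The call of ZNF280C was lost without ANKRD10-1 OE replicate 2 (0.44, edgeR adjusted p = 0.0537) and that of ZNF771 without replicate 1 or 3 of either group (up to 0.172). Without ANKRD10-1 OE replicate 1 or 2, the count of 23 fell to 11.

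In siANKRD10-1, 12 of 229 genes were higher and 9 lower than in siNC, where 5.08% of all genes tested were higher and 5.52% lower, and the median was 0.01. ZNF138, a KRAB gene, had 8.75, 8.16 and 8.54 CPM in siNC and 13.5, 12.8 and 12.5 CPM in siANKRD10-1 (0.61 ± 0.09, edgeR adjusted p = 3.13e-04). ZNF592, which belongs to a chromatin complex with ZNF687 and ZNF532, had 46.3, 43.5 and 43.0 CPM in siNC and 36.9, 35.3 and 32.4 CPM in siANKRD10-1 (−0.34 ± 0.07, edgeR adjusted p = 0.00242). Neither gene's groups overlapped. The rises of ZNF25 (0.56) and ZNF273 (0.52) and the falls of ZNF641 (−0.42) and ZNF654 (−0.36) each lost their call without at least 1 library (edgeR adjusted p; ZNF25: siNC replicate 3 or siANKRD10-1 replicate 1, up to 0.0654; ZNF273: siNC replicate 1 or 2 or siANKRD10-1 replicate 1 or 3, up to 0.214; ZNF641: siNC replicate 2, 0.0522; ZNF654: siNC replicate 1 or 2 or siANKRD10-1 replicate 3, up to 0.0968). The count of 21 fell to 8, 5, 8 and 13 without siNC replicate 1, siNC replicate 2, siANKRD10-1 replicate 1 or siANKRD10-1 replicate 3.

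In siANKRD10-2, 48 of 230 genes were higher and 22 lower than in siNC, where 17.6% of all genes tested were higher and 18.7% lower, and the median was 0.04. The summed epithelial markers were 6780 to 7210 CPM in siNC and 4125 to 4297 CPM in siANKRD10-2, and mitochondrial genes took 12% to 13.8% of the counts in siNC and 8.92% to 10.5% in siANKRD10-2. The part of both in these changes was not tested. ZNF117 had 8.62, 7.38 and 8.47 CPM in siNC and 13.9, 13.1 and 14.2 CPM in siANKRD10-2 (0.75 ± 0.10, edgeR adjusted p = 8.73e-07). ZNF219 had 16.8, 16.4 and 17.6 CPM in siNC and 24.7, 26.1 and 26.4 CPM in siANKRD10-2 (0.60 ± 0.07, edgeR adjusted p = 3.59e-07). These groups did not overlap, nor did those of ZNF785 (0.57 ± 0.13).

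ZNF750 fell furthest of the named genes in siANKRD10-2, from 4.39, 4.65 and 3.58 CPM in siNC to 2.06, 2.02 and 2.05 CPM (−1.04 ± 0.17, edgeR adjusted p = 2.80e-05). In siANKRD10-1 it had 2.60, 2.97 and 3.50 CPM (−0.48 ± 0.16, edgeR adjusted p = 0.0711). ZNF488, a factor of oligodendrocyte development, had 9.78, 7.60 and 8.35 CPM in siNC and 4.01, 5.91 and 5.6 CPM in siANKRD10-2 (−0.73 ± 0.14, edgeR adjusted p = 1.33e-04), and ZNF319 fell by 0.68 ± 0.16. The siANKRD10-2 libraries of the 3 genes were all below siNC.

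The 2 siRNA groups differed from each other in 62 of 230 genes, with 42 higher and 20 lower in siANKRD10-2, where 18.2% of all genes tested were higher and 18.8% lower. ZNF512B, a partner of the NuRD complex, showed the largest rise, with 31.8, 29.7 and 26.8 CPM in siANKRD10-1 and 49.0, 52.7 and 52.5 CPM in siANKRD10-2 (0.81 ± 0.07, edgeR adjusted p = 4.11e-09). Its siNC libraries, at 40.0, 38.7 and 33.1 CPM, lay between these groups. The fall in siANKRD10-1 against siNC (−0.34, edgeR adjusted p = 0.00973) was lost without siNC replicate 1 or 2 (0.0647 and 0.0686), and the rise in siANKRD10-2 (0.46, edgeR adjusted p = 4.77e-06) was not lost without any 1 library. ZNF839 (−0.61) and ZNF133 (−0.49) went the other way, higher in siANKRD10-1 and lower in siANKRD10-2 than in siNC. Against siNC, both siANKRD10-1 calls were lost without siNC replicate 1 or 2 or siANKRD10-1 replicate 2 (ZNF839 also without replicate 1 or 3 of siANKRD10-1, edgeR adjusted p up to 0.174, and ZNF133 up to 0.0880), and the siANKRD10-2 call of ZNF133 without siNC replicate 2 or siANKRD10-2 replicate 1 or 2 (up to 0.231). Without siANKRD10-2 replicate 1 the count of 62 fell to 39.

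Promoters of ZNF143 and ZNF622 are shown because these genes were called in the ANKRD10-2 groups of both tables, ZNF143 in opposite directions and ZNF622 in the same one. They are RefSeq sequences of GRCh38.p14, with the bases TGACGTCA, a site of cyclic AMP response factors, in capitals where present. That of ZNF143 is chr11:9460762-9461061 on the plus strand and that of ZNF622 is chr5:16465751-16466050 on the minus strand.
ZNF143: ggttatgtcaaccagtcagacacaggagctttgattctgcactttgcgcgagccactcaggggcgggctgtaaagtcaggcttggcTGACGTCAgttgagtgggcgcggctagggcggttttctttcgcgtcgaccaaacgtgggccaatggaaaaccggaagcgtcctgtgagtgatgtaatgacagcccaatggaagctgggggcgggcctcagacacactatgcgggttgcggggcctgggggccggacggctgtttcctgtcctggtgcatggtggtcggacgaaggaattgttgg
ZNF622: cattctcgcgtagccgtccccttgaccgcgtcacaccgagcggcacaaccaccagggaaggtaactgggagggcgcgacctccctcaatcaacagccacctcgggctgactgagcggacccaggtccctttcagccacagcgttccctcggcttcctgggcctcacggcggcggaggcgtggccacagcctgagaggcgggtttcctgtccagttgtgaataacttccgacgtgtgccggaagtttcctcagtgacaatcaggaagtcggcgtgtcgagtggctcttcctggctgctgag

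Of the 235 genes, 192 had a RefSeq promoter of 300 bases, and 3 motifs were searched on both strands. CACGTG, an E-box that MYC and MAX bind, was in 12 (6.25%), beside 7.43% of all 27305 promoters. ACTACAA, the core of the site that ZNF143 binds, was in 12 (6.25%, beside 2.95%), and TGACGTCA in 8 (4.17%, beside 1.98%). Matches can overlap at their ends, since TGACGTCA ends in the letters with which CACGTG begins, and each motif was counted for itself. Of the 12 with CACGTG, 0 were higher and 3 lower in ANKRD10-2 OE, and 3 were higher and 1 lower in siANKRD10-2. Of those without it, 10 were higher and 39 lower of 179 tested in ANKRD10-2 OE. In siANKRD10-2, 39 were higher and 14 lower of 177 without it. The medians with and without it were −0.04 and −0.10 in ANKRD10-2 OE and 0.01 and 0.04 in siANKRD10-2. A match says only that the letters are there.

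ZNF143 was lower in the knockdown. It had 32.7, 31.5 and 35.4 CPM in siNC, 30.6, 28.9 and 30.1 CPM in siANKRD10-1 (−0.15, edgeR adjusted p = 0.168) and 22.8, 21.9 and 27.6 CPM in siANKRD10-2 (−0.46 ± 0.08, edgeR adjusted p = 4.77e-05). All siANKRD10-2 libraries were below all others of the table. ZNF622 was higher in all 6 comparisons with a control group. It had 51.1, 49.3 and 53.5 CPM in Vector, 63.0, 62.7 and 63.5 CPM in ANKRD10-1 OE (0.29, edgeR adjusted p = 0.00126) and 70.8, 64.9 and 57.5 CPM in ANKRD10-2 OE (0.33, edgeR adjusted p = 0.00489). It had 50.8, 57.0 and 53.6 CPM in siNC, 62.1, 59.5 and 69.8 CPM in siANKRD10-1 (0.25, edgeR adjusted p = 0.0272) and 74.3, 70.5 and 72.3 CPM in siANKRD10-2 (0.43, edgeR adjusted p = 1.91e-06). Every treated library of both tables lay above its controls, and the siANKRD10-1 call was lost without siNC replicate 1 or 2 or siANKRD10-1 replicate 1 or 3 (up to 0.153).

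**Figure D4:**
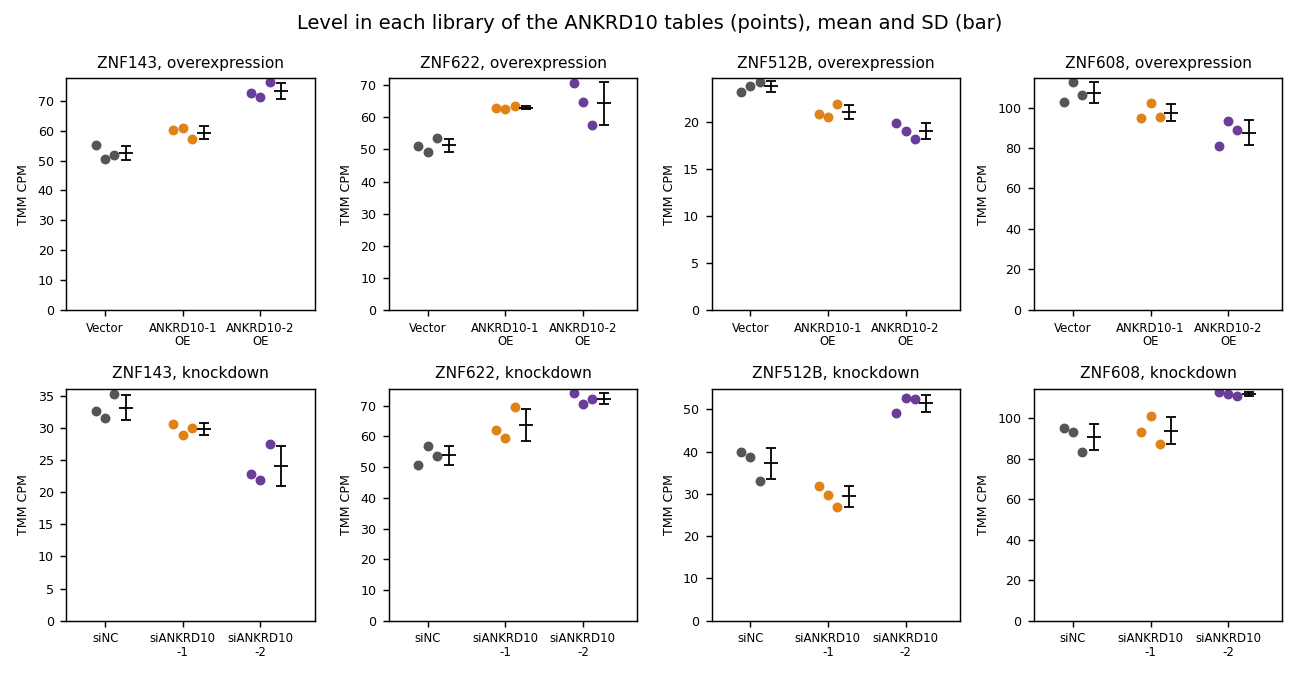
Level of ZNF143, ZNF622, ZNF512B and ZNF608 in each library of the overexpression (top) and knockdown (bottom) tables, in TMM CPM on axes that start at 0 (points: libraries, bar: mean and SD, n = 3). ZNF143 was highest in ANKRD10-2 OE and lowest in siANKRD10-2, ZNF622 was above its controls in all 4 treated groups, and ZNF512B and ZNF608 were lower in ANKRD10-2 OE and higher in siANKRD10-2.

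The ANKRD10-2 OE and siANKRD10-2 comparisons come from separate tables and share no library. Of 229 genes tested in both, 24 were called in both, which is 37.5% of the 64 called in ANKRD10-2 OE and 34.3% of the 70 called in siANKRD10-2. Over all genes, those called in both were 51.1% of the ANKRD10-2 OE list and 29.7% of the siANKRD10-2 list. Of the 24, 16 were lower in ANKRD10-2 OE and higher in siANKRD10-2, 2 were the reverse (ZNF143 and ZNF280C) and 6 had the same direction, so 75% were opposite, beside 65.6% of the 2015 genes called in both over all genes. The siANKRD10-2 call of ZNF280C (−0.34, edgeR adjusted p = 0.0495) was lost without any 1 of the 6 libraries (up to 0.108). The 16 include ZNF512B, ZNF608, ZNF219, ZNF445, ZNF512, ZNF589, ZNF605, ZNF618 and ZNF891. ZNF219 in ANKRD10-2 OE (−0.30, edgeR adjusted p = 0.0370) was lost without any library but ANKRD10-2 OE replicate 1 (up to 0.136).

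KO2 and ANKRD10-2 OE share no library either. Among 230 genes tested in both, 44 were called in both, 39.3% of the KO2 list and 68.8% of the ANKRD10-2 OE list, of which 40 were lower in both, 2 higher in both and 2 opposite. Over all genes 1877 were called in both, 29.7% of the KO2 list and 55.8% of the ANKRD10-2 OE list, with 815 higher in both, 566 lower in both and 496 opposite. For KO1 and ANKRD10-2 OE, 28 were called in both, 37.3% of the KO1 list and 43.8% of the ANKRD10-2 OE list. Of the 28, 24 were lower in both, 2 higher in both and 2 opposite. Over all genes 1746 were called in both, 30.2% of the KO1 list and 52.1% of the ANKRD10-2 OE list. Of the 1746, 736 were higher in both, 520 lower in both and 490 opposite.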

How the data were processed

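RNA-seq gene counts of 30 libraries from 5637 cells were read from 3 deposited tables, 1 each for the knockout (12 libraries), overexpression (9) and knockdown (9) experiments. The authors made these raw read counts from trimmed reads (Trimmomatic 0.36) aligned to GRCh38 and counted per gene with featureCounts of Subread 1.5.1, per the submitters' processing notes; the strand setting and annotation release are not given in the sources used here. The study's methods name HISAT2 as the aligner. No sample column was left unused.

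Counts were scaled by TMM within a table and tested with edgeR 4.0.16 (glmQLFit and glmQLFTest, R 4.3.3), on the groups compared only and on all 12 libraries for the difference of the knockout effects. Genes passed filterByExpr (minimum count 10, minimum total 15), p-values were adjusted by Benjamini-Hochberg over all genes tested, and 0.05 was the threshold. DESeq2 1.42.0, RLE scaling, no filter, a replicate block, other sets of libraries and leaving out each library were alternatives. The tests were checked on simulated counts. Libraries of a group were compared, and none were identical. Samples with the same replicate number deviated together in every pair of KO2 and WT2 (correlations from 0.055 to 0.067). The same held for ANKRD10-2 OE and Vector (0.049 to 0.126), but not for every pair of the other comparisons. The main tests did not take the numbers to pair the samples, and the replicate block was the alternative that did.

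The genes, lists, rules and tests were chosen with earlier results of these data known. Genes named are the 5 largest rises and falls in each knockout and the 3 in other comparisons (called, groups not overlapping, at least 50 normalized counts on average), the leading shared and opposite genes, the 5 highest per length, and a fixed list. ZNF318, ZNF354B, ZNF396, ZNF639 and others named as members of a cluster or a shared list were named after their values were seen. Domains were found by pattern in translated GENCODE v29 coding sequences (KRAB: at least 10 of 13 positions), in place of RefSeq proteins, and promoters were taken from RefSeq.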

Additional observations from a re-analysis of the deposited data

Results flagged for a closer look

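The change of 55 zinc finger genes differed between the knockouts by the test of the difference itself (KO1 effect minus KO2 effect on the log2 scale, edgeR adjusted p under 0.05), beside 11.2% of all genes tested with a difference above 0 and 12.1% below. It was below 0 for 11 of them, among these ZNF711 (−1.0), ZNF862 (−0.87), ZNF608 (−0.55), ZNF337 (−0.51), ZNF133 (−0.42) and ZNF219 (−0.38). It was above 0 for 44. Those at 1 or more among the genes given above were ZNF732 (3.08), ZNF750 (3.01), ZNF736 (2.06), ZNF354C (1.79), ZNF680 (1.35), ZNF488 (1.13) and ZNF572 (1.06). ZNF485 and ZNF483 were both at 0.94, and the latter lies on chromosome 9, as do ZNF169 (0.90) and ZNF367 (0.81). ZNF436 had 0.88, ZNF268 0.84, ZNF354A 0.72, ZNF514 0.68, ZNF273 0.60, ZNF594 0.56, ZNF397 0.54, ZNF703 0.33 and ZNF512B 0.28. In the chromosome 12 cluster ZNF84 and ZNF891 had 0.60 each and ZNF140 and ZNF605 0.53 each, and ZNF318 had 0.45 and ZNF740 0.40. The other genes of chromosome 9 had a median difference of 0.42, and its part in the values of ZNF483, ZNF169 and ZNF367 was not tested. Since each knockout has its own clone and WT group, clone and genotype cannot be told apart here.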

How the results depend on the processing

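Each count and median was recomputed under the alternatives named above, and no median or named value changed sign except the siANKRD10-1 median, as given below. Of 188 named values, 119 kept their call under every alternative and 69 lost it under at least 1. Counting only calls of 2-fold or more, there were 9 (KO1), 10 (KO2), 8 (KO1 minus KO2), 0 (WT2 against WT1), 0 (ANKRD10-1 OE), 1 (ANKRD10-2 OE), 0 (ANKRD10-2 OE against ANKRD10-1 OE), 0 (siANKRD10-1), 2 (siANKRD10-2), 0 (siANKRD10-2 against siANKRD10-1) and 1 the same way in both knockouts. The shares over all genes at 2-fold are not given here, so these counts have no background beside them. WT2 against WT1 gave 14 with DESeq2 (8 higher, 6 lower), 2 with no filter and 3 with the replicate block. The block gave 33 for siANKRD10-1. Besides this count and that of WT2 against WT1, it moved none by over 1.5 times. Same-numbered libraries had correlations of their deviations from −0.058 to 0.130. Every such correlation was positive for KO2 with WT2 and for ANKRD10-2 OE with Vector.

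With 1 library left out, called genes numbered 53 to 75 (KO1), 89 to 98 (KO2), 43 to 62 (KO1 minus KO2), 1 to 3 (WT2), 7 to 21 (ANKRD10-1 OE), 39 to 60 (ANKRD10-2 OE), 11 to 26 (between the overexpression groups), 5 to 27 (siANKRD10-1), 47 to 60 (siANKRD10-2) and 39 to 66 (between the siRNA groups). The medians ran from −0.0229 to −0.0104 (ANKRD10-1 OE), −0.0994 to −0.0775 (ANKRD10-2 OE), −0.0148 to 0.0232 (siANKRD10-1) and 0.0279 to 0.0595 (siANKRD10-2). Leaving out the chromosome 9 genes, chosen after seeing the data, gave 41 genes called the same way in both knockouts in place of 43. Low levels limit the depth behind genes such as ZNF732, with under 2 CPM outside KO1.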

Other observations

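Sequence classes in the overexpression and knockdown tables were not described above. In ANKRD10-2 OE, 24 genes with a KRAB A box were lower, 2 were higher and 79 did not pass (median −0.13), and of 127 without one 29 were lower and 9 higher (median −0.07). In siANKRD10-2, 21 KRAB genes were higher, 5 were lower and 79 did not pass (median 0.05), and 27 of 125 others were higher and 17 lower (median 0.02). The difference between the classes was not tested.

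Of the 25 corepressor genes, 5 (20%) were higher and 6 (24%) lower in ANKRD10-2 OE, beside 10.7% and 9.25% of all genes tested. In siANKRD10-2, 10 (40%) were higher and 5 (20%) lower, beside 17.6% and 18.7% of all genes tested. In siANKRD10-1, 0 were higher and 4 (16%) lower, beside 5.08% and 5.52%. In siANKRD10-2, TRIM28 fell by 0.36 and CBX1, an HP1 protein, rose by 0.50 on the log2 scale. DNMT1, the maintenance DNA methyltransferase, fell by 0.53 in KO1 and by 0.29 in siANKRD10-1 and rose by 0.19 in siANKRD10-2. Like TRIM28 it lies on chromosome 19, where the other genes tested had a median of −0.39 in KO1. The part of that value in its KO1 fall was not tested.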
